A study of Mus musculus with 6 samples.

Results

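The genes described here are those of the interleukins and of their receptors in CD11b-positive cells of the mouse spinal cord. Interleukins are secreted proteins through which immune cells signal to each other and to tissue cells. Members of the interleukin-1 family bind receptors that act through Myd88 and NF-kB, most other interleukins bind paired receptor chains that act through Jak kinases and Stat factors, and several are held in check by soluble antagonists and by decoy receptors that bind without signalling. Microglia, which are the macrophages of brain and spinal cord tissue, are known to make interleukin-1 and to carry receptors for interleukin-10, interleukin-4 and interleukin-6. The members were taken as every gene symbol of the deposited table that starts with Il and a number, which gave 83 genes among 47585 symbols. They were divided into 38 ligand genes, 41 receptor genes, Il1rn and Il18bp, whose products are soluble antagonists, and 2 others, the antisense gene Il1bos and the amino acid oxidase gene Il4i1. The antagonist gene Il1f5 was kept with the ligands whose family it belongs to, and Il22ra2, whose product is a soluble binding protein, and the decoys Il1r2 and Il13ra2 with the receptors. Il11ra2 stood on 3 rows, all listed at 0.

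RNA was sequenced from spinal cords of Biozzi ABH mice, an inbred strain, aged 3 months. The ECS group had 3 sessions of electroconvulsive seizures, which are seizures set off by a short electrical stimulus, on successive days and was killed on the following day. The control group is labelled as control and described as naive, whereas the protocol speaks of a sham procedure. Each group had 3 libraries, each from a pool of 5 mice, so that n counts pools. CD11b is an integrin that microglia share with neutrophils, monocytes and other macrophages, and in such a bulk sample fewer cells of a type and less RNA per cell cannot be told apart. Levels are in FPKM, that is fragments per kilobase of transcript relative to all fragments of a library. Because FPKM corrects for length, levels of different genes can be compared.

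The libraries summed to between 887144 and 926323 FPKM in ECS and between 729831 and 1009665 FPKM in control, and the number of reads is unknown. All of 10 microglia markers had a mean of 1 FPKM or more, and their summed level was 6064 to 9292 FPKM in ECS and 7720 to 10382 FPKM in control. Markers of other cells were present too, and several differed widely between libraries. The 11 neutrophil markers summed to 11006 to 14151 FPKM in ECS and 14293 to 25616 FPKM in control. The 7 markers of border-associated macrophages summed to 205 to 657 FPKM in ECS and 146 to 164 FPKM in control. Neither sum overlapped between the groups, but the neutrophil sums of ECS 3 and control 1 lay close together. Of the neutrophil markers, Ngp alone was lower in every ECS library than in any control library, and each of the others overlapped. The sum of the border-associated macrophage markers was carried by Pf4, Clec10a and Cbr2, of which Cbr2 and Clec10a were at higher levels in every ECS library than in any control library and Pf4 was lower in ECS 3 than in any control library, while Mrc1, Cd163, Lyve1 and F13a1 overlapped between the groups. Monocyte markers summed to 2420 to 6227 FPKM in ECS and 1685 to 3951 FPKM in control. In ECS 1 and ECS 2 most of that sum was Fn1, at 5184 and 2482 FPKM, and each monocyte marker overlapped between the groups. Erythroid markers summed to 7207 to 77284 FPKM in ECS and 2231 to 32752 FPKM in control. Hba-a1 and Hba-a2 were listed at 0 in ECS 1, ECS 2, control 2 and control 3, so the erythroid sums do not add the same genes in each library. B cell markers summed to 708 FPKM in ECS 1, of which Pax5 made up 652 FPKM, and to 8.75 to 36.8 FPKM in the other libraries. ECS 1 stood apart from the other libraries, with 1580 of the tested genes listed at 0, against 448 to 806 in each of the others, and 38 interleukin family genes above 0, against 40 to 47 in the others. An exact 0 in such a table can be a failed estimate, and for genes with a 0 the value of each library is given in place of a mean.

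Much of the family was low or listed at 0. Of the 83 genes, 29 were listed at 0 in all 6 libraries, 17 more stayed below a mean of 1 FPKM, and 37 reached it and were tested. The ligands at 0 throughout included Il2, Il3, Il4, Il5, Il9, Il17a, Il21, Il22 and Il31, which T cells are known to make, the interleukin-36 and interleukin-38 genes Il1f5, Il1f6, Il1f8 and Il1f10, known from epithelia, and Il7, Il11, Il17b, Il19, Il20, Il24 and Il25. Of 10 T and NK cell markers, Trac and Trbc2 were listed at 0 in every library and Nkg7 was at 62.4 to 175 FPKM in ECS and 101 to 289.9 FPKM in control. Cd2 was at 2.17 to 10.4 FPKM in ECS and 1.04 to 7.96 FPKM in control, and each of the other 6 stayed below 3.50 FPKM in every library. Against that, 5 genes had a mean of at least 100 FPKM, namely the ligands Il1a and Il1b and the receptors Il17ra (GRCm38, chromosome 6, 120463247 to 120487559, plus strand), Il10ra (chromosome 9, 45253837 to 45269149, minus strand) and Il1r2 (chromosome 1, 40074079 to 40125231, plus strand).

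Il1a and Il1b encode the interleukin-1 ligands, which bind the same receptor, and were by far the most abundant interleukins. Both lie on chromosome 2 of GRCm38 on the minus strand, Il1a at 129299610 to 129309972 and Il1b at 129364570 to 129371139. Il6, a gene of chromosome 5 (30013114 to 30019981, plus strand), encodes the ligand of the gp130 receptor system, and it had the most negative log2 fold change of the tested family. The promoters of these 3 genes are shown because of the abundance of Il1a and Il1b and the fold change of Il6. None of the 3 genes was called different between the groups. They are RefSeq sequences of GRCm38.p6 and run from 250 bases before to 50 bases after the start, 5′ to 3′ on the strand of the gene, at chr2:129309923-129310222 for Il1a, chr2:129371090-129371389 for Il1b and chr5:30012864-30013163 for Il6. Capitals mark matches to TATAAA, the TATA box, and to GGGANTT, the start of many NF-kB sites.
Il1a: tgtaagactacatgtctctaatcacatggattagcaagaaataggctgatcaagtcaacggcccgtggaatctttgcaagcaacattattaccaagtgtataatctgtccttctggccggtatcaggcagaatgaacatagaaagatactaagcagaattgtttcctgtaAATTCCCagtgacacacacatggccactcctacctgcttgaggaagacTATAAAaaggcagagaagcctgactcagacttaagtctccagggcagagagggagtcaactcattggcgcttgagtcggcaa
Il1b: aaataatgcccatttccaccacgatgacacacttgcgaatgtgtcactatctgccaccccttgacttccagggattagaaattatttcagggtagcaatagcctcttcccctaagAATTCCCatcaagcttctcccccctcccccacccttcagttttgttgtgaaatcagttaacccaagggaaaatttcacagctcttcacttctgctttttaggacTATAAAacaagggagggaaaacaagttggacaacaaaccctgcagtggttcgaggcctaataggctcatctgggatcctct
Il6: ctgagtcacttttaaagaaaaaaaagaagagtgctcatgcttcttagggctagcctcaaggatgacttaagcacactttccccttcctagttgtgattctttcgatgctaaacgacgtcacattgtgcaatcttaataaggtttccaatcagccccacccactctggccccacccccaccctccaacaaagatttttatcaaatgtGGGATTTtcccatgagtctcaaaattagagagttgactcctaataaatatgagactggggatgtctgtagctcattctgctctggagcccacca
Both strands were searched. Il1a had 1 TATAAA match that began 32 bases before the start and Il1b had 1 that began 31 bases before it, and 13.6% of 32851 promoters of the same length held one. Each of the 3 promoters had 1 match to GGGANTT, which began 80 bases before the start in Il1a and 135 bases before it in Il1b, both on the opposite strand, and 44 bases before it in Il6, on the strand of the gene, and 16.5% of the promoters held one. None of these matches overlapped another pattern. An AP-1 pattern, TGANTCA, was found in the Il1a promoter from 12 to 6 bases before the start and in the Il6 promoter from 249 to 243 bases before it, where 7.81% of promoters held one. These matches describe letters in the window only. Of the 83 genes, 66 had a promoter in the table.

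The comparison of ECS with control asked whether any of these transcripts differed after the seizures. No interleukin family gene was called higher and none was called lower in ECS at an adjusted p under 0.05 (limma on log2(FPKM + 1), Benjamini-Hochberg adjustment over all 11315 genes tested). The background was the same, with 0% of all tested genes called higher and 0% called lower. At an unadjusted p under 0.05 there were 0 of 37 members, against 3.66% of all tested genes. The groups were separate in FPKM for 0 of 37 members, against 7.49% of all tested genes. The log2 fold change was above 0 for 21 members and below 0 for 16, and 49.2% of all tested genes were above 0. The smallest unadjusted p of a member was 0.0798, for Il10. Every adjusted p of a member was close to 1.

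**Figure D1:**
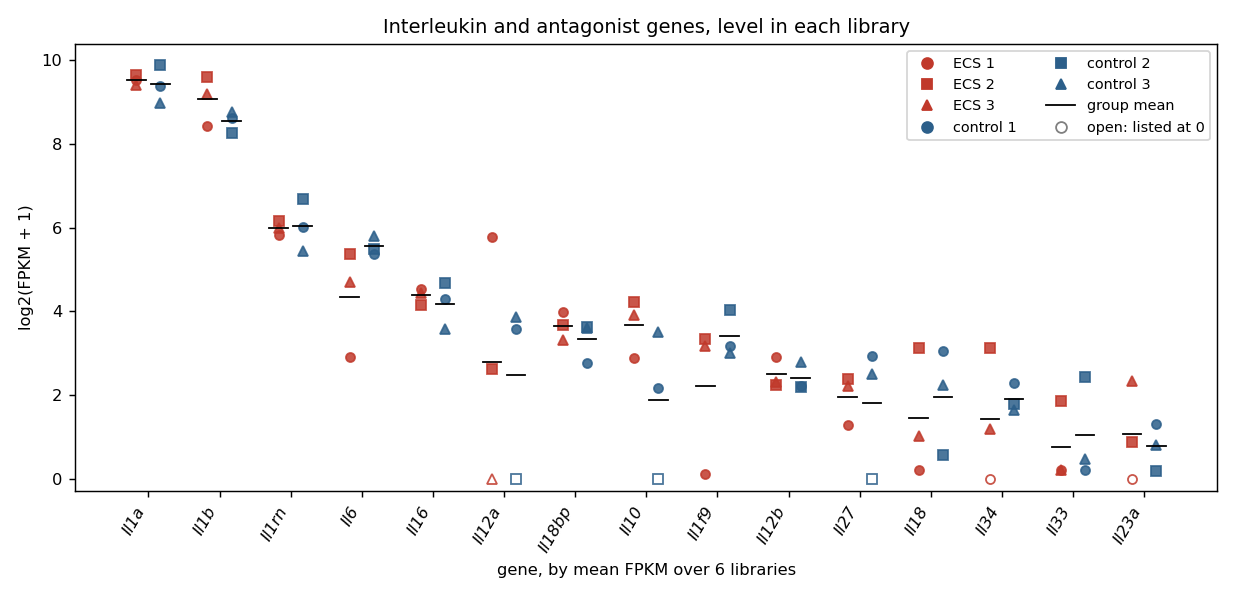
Level of each tested ligand and antagonist gene as log2(FPKM + 1) on the y axis, 1 point per library, with ECS left of control for each gene and the group mean as a line; genes run along the x axis by their mean. Il1a and Il1b stand above all others in all 6 libraries, and the 2 groups overlap for each gene.

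Il1a was at 741, 799 and 682 FPKM in ECS 1, 2 and 3, and at 666, 949 and 505 FPKM in control 1, 2 and 3. The control libraries spanned all of the ECS values, and the log2 fold change was 0.11 with a 95% interval from -0.52 to 0.74. Il1b was at 344, 770 and 588 FPKM in ECS 1, 2 and 3, and at 393, 304 and 430 FPKM in control 1, 2 and 3. ECS 2 and ECS 3 lay above every control library, and ECS 1 lay below control 1 and control 3. Its log2 fold change was 0.53 ± 0.33 (SE), with an interval from -0.24 to 1.31 and a limma adjusted p of 1.00. Without ECS 1 it was 0.85 ± 0.27 (SE), with an adjusted p that still missed the threshold (0.999), and without ECS 2 it was 0.27. The antisense gene Il1bos overlaps Il1b, and reads of the pair cannot be told apart where strand was not used. Il1bos was listed at 0 in ECS 1, ECS 2 and control 3 and reached 2.21 FPKM at most, in control 2. The ratio of Il1a to Il1b was 2.15, 1.04 and 1.16 in ECS 1, 2 and 3, and 1.69, 3.12 and 1.17 in control 1, 2 and 3, and overlapped between the groups.

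Il1rn encodes the soluble receptor antagonist of interleukin-1 and was the next most abundant of the tested ligand and antagonist genes, at 56.1, 70.8 and 62.8 FPKM in ECS 1, 2 and 3, and at 64.1, 101 and 42.5 FPKM in control 1, 2 and 3. Its log2 fold change was -0.05, with an interval from -0.87 to 0.77. The summed level of Il1a and Il1b exceeded that of Il1rn 19.3 to 22.2 times in the ECS libraries and 12.4 to 22.0 times in the control libraries. The antagonist was thus the lesser transcript in each of the 6 libraries. Il18bp, whose product binds and blocks interleukin-18, was at 14.9, 11.8 and 8.89 FPKM in ECS 1, 2 and 3, and at 5.81, 11.2 and 11.2 FPKM in control 1, 2 and 3, with control 1 lowest and ECS 3 below the other control libraries. Il18 itself was unsteady, at 0.160, 7.66 and 1.04 FPKM in ECS 1, 2 and 3, and at 7.23, 0.483 and 3.72 FPKM in control 1, 2 and 3. Both groups held libraries above 7 FPKM and libraries below 1 FPKM. Il18bp overlaps Numa1, and Il18 overlaps Bco2 and Tex12, on the opposite strand.

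Il6 was at 6.49, 40.7 and 25.1 FPKM in ECS 1, 2 and 3, and at 40.2, 44.2 and 54.8 FPKM in control 1, 2 and 3. The 3 control libraries were close to each other, and ECS 2 lay just above the lowest of them. The log2 fold change was -1.22 ± 0.61 (SE), with an interval from -2.65 to 0.20 and a limma adjusted p of 1.00. Without ECS 1, the lowest library, it was -0.51, and without ECS 2 it was -1.75, with an adjusted p of 0.955. Il10 encodes an anti-inflammatory interleukin made by macrophages and lymphocytes and lies on chromosome 1 (131019845 to 131024974, plus strand). It was at 6.41, 17.7 and 14.0 FPKM in ECS 1, 2 and 3, and at 3.48, listed at 0 and 10.4 FPKM in control 1, 2 and 3. ECS 2 and ECS 3 lay above all control libraries, and ECS 1 lay below control 3. The log2 fold change was 1.79 ± 0.88 (SE), with an interval from -0.27 to 3.85. It depends on the constant added before the logarithm because of the 0 in control 2, and was 2.93 with a constant of 0.1. Without control 2 it was 0.84, and without control 3 it was 2.59. The 7 markers of border-associated macrophages summed to 453, 657 and 205 FPKM in ECS 1, 2 and 3, and to 152, 146 and 164 FPKM in control 1, 2 and 3, and their part in the Il10 values was not tested.

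The level of Il1b relative to Il6 was looked at after their values were seen, and is given with no test. Il1b exceeded Il6 52.9, 18.9 and 23.5 times in ECS 1, 2 and 3, and 9.79, 6.89 and 7.85 times in control 1, 2 and 3. The lowest ECS ratio lay above the highest control ratio, while each gene by itself overlapped between the groups. Among all 153 ratios of 2 members that had no 0 and averaged at least 10 FPKM, 5 were separate between the groups, which is 3.27%. Of all tested genes taken singly, 7.49% were separate, a larger share. Ratios over all genes were not computed, so a separate ratio cannot be read as particular to these members. All 5 had Il6 below the line, with Il1b, Il10rb, Il18bp, Il1rap or Il2rg above it. Il10rb relative to Il6 was 0.912 to 5.09 in ECS and 0.504 to 0.827 in control.

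**Figure D2:**
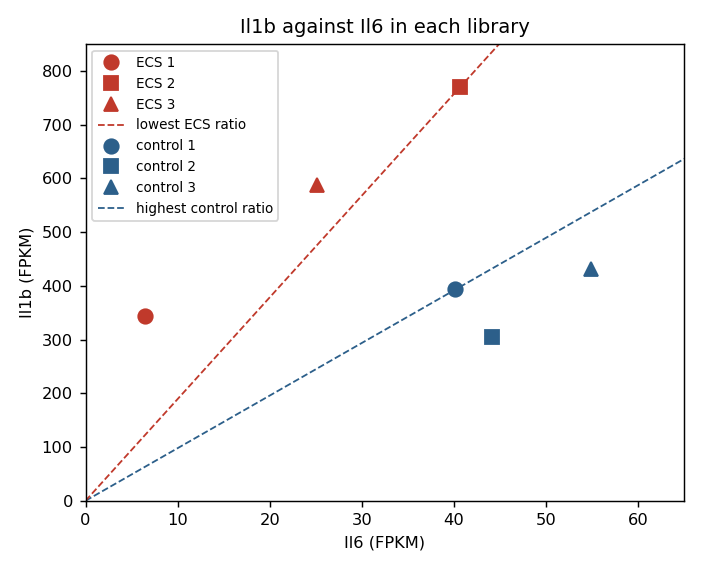
Il1b on the y axis against Il6 on the x axis, both in FPKM, with 1 point per library; the dashed lines through 0 mark the lowest ratio in ECS (18.9) and the highest ratio in control (9.79). The 3 ECS points lie on or above the upper line and the 3 control points on or below the lower one.

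The other detected ligands were low. Il16, the product of which attracts CD4-positive cells, was at 22.3, 16.8 and 20.7 FPKM in ECS 1, 2 and 3, and at 18.7, 24.8 and 10.8 FPKM in control 1, 2 and 3, so that the ECS libraries lay inside the control range. On the log2 scale the difference was 0.20 ± 0.37 (SE). Il12a, which encodes the p35 chain of interleukin-12, was at 53.8 and 5.18 FPKM in ECS 1 and ECS 2 and listed at 0 in ECS 3, and at 10.8 FPKM, listed at 0 and 13.6 FPKM in control 1, 2 and 3. A single library, ECS 1, was high, and each group held a library at 0. Il12b, the gene of the p40 chain that interleukin-12 and interleukin-23 share, was steadier, at 4.76 ± 1.55 FPKM in ECS and 4.37 ± 1.35 FPKM in control (SD, n = 3 each). Il23a, which encodes the p19 chain of interleukin-23, was listed at 0 in ECS 1 and was at 0.833 and 4.02 FPKM in ECS 2 and 3, and at 1.48, 0.143 and 0.756 FPKM in control 1, 2 and 3. Il27, the p28 chain of interleukin-27, was at 1.44, 4.22 and 3.62 FPKM in ECS 1, 2 and 3, and at 6.68 FPKM, listed at 0 and 4.69 FPKM in control 1, 2 and 3. Its partner chain is encoded by Ebi3, which was far more abundant, at 259 ± 44.9 FPKM in ECS and 319 ± 61.5 FPKM in control (SD, n = 3 each). Il27 overlaps Apobr on the other strand and was deposited with a locus that extends beyond the gene, so its value is uncertain.

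Il1f9, which encodes interleukin-36 gamma, was at 0.0880, 9.10 and 8.03 FPKM in ECS 1, 2 and 3, and at 8.07, 15.3 and 6.99 FPKM in control 1, 2 and 3. ECS 1 was far below the rest, and the other ECS libraries lay within the control range. Neutrophils are a known source of this transcript, and the summed neutrophil markers were 13159, 11006 and 14151 FPKM in ECS 1, 2 and 3, and 14293, 25616 and 17737 FPKM in control 1, 2 and 3. The part of the neutrophils in the Il1f9 values was not tested. Il34, a ligand of the colony stimulating factor receptor Csf1r, was listed at 0 in ECS 1 and was at 7.70 and 1.29 FPKM in ECS 2 and 3, and at 3.85, 2.46 and 2.12 FPKM in control 1, 2 and 3. Il33, an alarmin of the interleukin-1 family, was at 0.150, 2.65 and 0.159 FPKM in ECS 1, 2 and 3, and at 0.152, 4.42 and 0.386 FPKM in control 1, 2 and 3, with 1 higher library in each group. Il15, which sustains NK cells and memory T cells, did not reach a mean of 1 FPKM. It was listed at 0 in ECS 1 and was at 1.64 and 0.640 FPKM in ECS 2 and 3, and at 0.565, 0.168 and 0.502 FPKM in control 1, 2 and 3. The remaining detected ligands, Il13, Il17c, Il17d and Il17f, were listed at 0 in at least 3 libraries each and never exceeded 3.63 FPKM. The deposited locus of Il17c covers 4435365 bases around a gene of 1620 bases, so its value cannot be read as that gene's.

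The receptor genes ranged more evenly, and 22 of 41 were tested. Il17ra, the common receptor chain for interleukin-17, was the most abundant, at 303, 161 and 443 FPKM in ECS 1, 2 and 3, and at 326, 216 and 284 FPKM in control 1, 2 and 3. ECS 2 was the lowest and ECS 3 the highest of all 6 libraries. Its log2 fold change was 0.04, with an interval from -0.87 to 0.95, and it turned to -0.052 once every library was scaled to an equal total. Il17rc, the chain that pairs with it, was listed at 0 in 5 libraries and at 25.5 FPKM in ECS 2. Il17rb, Il17rd and Il17re did not exceed 0.897 FPKM in any library.

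**Figure D3:**
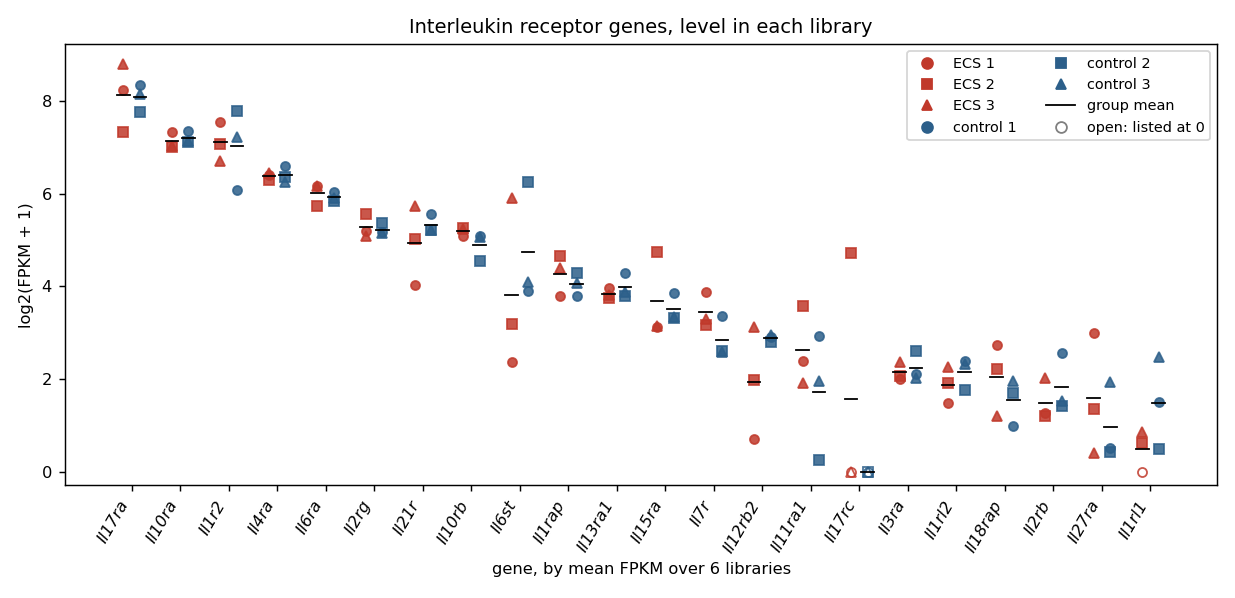
Level of each tested receptor gene as log2(FPKM + 1) on the y axis, 1 point per library, with ECS left of control and the group mean as a line; genes run along the x axis by their mean. Il10ra, Il4ra, Il6ra and Il2rg have tightly spaced points, Il6st and Il12rb2 widely spaced ones, and the 2 groups overlap for each gene.

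For interleukin-1, the decoy was the main receptor transcript. Il1r2, which encodes the decoy receptor, was at 187, 134 and 103 FPKM in ECS 1, 2 and 3, and at 66.9, 220 and 148 FPKM in control 1, 2 and 3. Il1r1, which encodes the signalling receptor, was at 0.721, 1.37 and 0.507 FPKM in ECS 1, 2 and 3, and at 0.623, 1.35 and 1.35 FPKM in control 1, 2 and 3, and fell short of the mean of 1 FPKM needed for a test. Il1r2 exceeded Il1r1 97.7 to 259 times in ECS and 107 to 164 times in control. The decoy thus outnumbered the signalling chain in each library of both groups. The log2 fold change of Il1r2 was 0.08 ± 0.46 (SE), with an interval from -0.999 to 1.15, and it was -0.40 without control 1 and 0.46 without control 2. Neutrophils are known to express Il1r2, and their summed markers are given above for each library. Their part in its level was not tested. Il1rap, the accessory chain that Il1r1 shares with the receptors for interleukin-33 and interleukin-36, was at 12.9, 24.1 and 20.0 FPKM in ECS 1, 2 and 3, and at 12.9, 18.4 and 15.9 FPKM in control 1, 2 and 3. ECS 2 and ECS 3 lay above the control libraries, and ECS 1 shared the lowest value with control 1. On the log2 scale the difference was 0.23 ± 0.35 (SE).

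The other receptors of the interleukin-1 family were low. Il1rl2, the interleukin-36 receptor, was at 2.77 ± 0.983 FPKM in ECS and 3.55 ± 1.03 FPKM in control (SD, n = 3 each). Il1rl1, which encodes the interleukin-33 receptor ST2 and is known from mast cells and basophils, was listed at 0 in ECS 1 and was at 0.532 and 0.820 FPKM in ECS 2 and 3, and at 1.84, 0.401 and 4.58 FPKM in control 1, 2 and 3. Control 3 was highest and control 2 was lower than ECS 2 and ECS 3. The 7 mast cell and basophil markers, of which Mcpt4 was listed at 0 everywhere, summed to 13.7 to 26.4 FPKM in ECS and 27.2 to 30.3 FPKM in control. Of these, Mcpt8 alone was lower in every ECS library than in any control library, at up to 19.9 FPKM in ECS and from 20.0 FPKM in control. The part of these cells in the Il1rl1 values was not tested. Il18rap, the accessory chain for interleukin-18, was at 3.53 ± 2.19 FPKM in ECS and 2.04 ± 0.973 FPKM in control (SD, n = 3 each). The binding chain Il18r1 was listed at 0 in ECS 1 and in all 3 control libraries, and was at 0.888 and 1.30 FPKM in ECS 2 and ECS 3.

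Both chains of the interleukin-10 receptor were present. Il10ra, the ligand-binding chain, was at 161, 129 and 130 FPKM in ECS 1, 2 and 3, and at 163, 137 and 140 FPKM in control 1, 2 and 3. The highest library was only 1.27 times the lowest, and the interval of the log2 fold change ran from -0.59 to 0.45. Il10rb, the chain shared with the receptors for interleukin-22 and related ligands, was at 33.0, 37.1 and 37.0 FPKM in ECS 1, 2 and 3, and at 33.2, 22.3 and 32.7 FPKM in control 1, 2 and 3. ECS 2 and ECS 3 lay above the control libraries and ECS 1 lay just below control 1, and its log2 fold change was 0.29 ± 0.28 (SE). Il10ra overlaps Gm20612 on the other strand, and Il10rb overlaps Gm21970 on its own. Of the other abundant members, Il1a, Il4ra, Il6ra and Il1rap overlap an antisense gene, and Il1r2, Il2rg and Il16 overlap a gene on their own strand, so that their values share this uncertainty.

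The receptors for interleukin-4 and interleukin-13 were among the steadiest. Il4ra, which takes part in both receptors, was at 83.6, 77.4 and 86.4 FPKM in ECS 1, 2 and 3, and at 96.6, 80.7 and 75.6 FPKM in control 1, 2 and 3, with a log2 fold change of -0.03 and an interval from -0.56 to 0.51. Its partner Il13ra1 was at 14.6, 12.5 and 13.04 FPKM in ECS 1, 2 and 3, and at 18.6, 12.9 and 13.7 FPKM in control 1, 2 and 3. The common gamma chain Il2rg was at 35.6, 46.3 and 32.8 FPKM in ECS 1, 2 and 3, and at 35.1, 40.0 and 34.4 FPKM in control 1, 2 and 3. Control 1 was highest for Il13ra1 and ECS 2 for Il2rg, and the remaining libraries of both groups were mixed. The decoy Il13ra2 was listed at 0 in every library, as were the ligands Il4 and, in 3 libraries, Il13. Other chains that pair with Il2rg varied more. Il7r, Il15ra, Il2rb and Il2ra were lower than Il2rg in every library. Il21r was higher than Il2rg in ECS 3, control 1 and control 3 and lower in the other libraries. Il21r was at 15.4, 31.6 and 52.6 FPKM in ECS 1, 2 and 3, and at 46.0, 36.2 and 36.1 FPKM in control 1, 2 and 3, so that the control libraries lay inside the ECS range. Il7r, the interleukin-7 receptor, was at 13.8, 7.91 and 8.82 FPKM in ECS 1, 2 and 3, and at 9.24, 5.10 and 4.97 FPKM in control 1, 2 and 3. Control 1 lay above ECS 2 and ECS 3, and the log2 fold change was 0.60 ± 0.40 (SE). Il15ra was at 7.68, 25.9 and 7.89 FPKM in ECS 1, 2 and 3, and at 13.6, 8.97 and 9.10 FPKM in control 1, 2 and 3, with ECS 2 alone standing out. Il2rb was at 1.90 ± 0.977 FPKM in ECS and 2.79 ± 1.80 FPKM in control (SD, n = 3 each), and Il2ra, the high-affinity chain of activated T cells, did not exceed 1.43 FPKM.

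Interleukin-6 signals through Il6ra and the shared chain gp130, encoded by Il6st, and these differed in steadiness. Il6ra was at 71.0, 52.5 and 70.4 FPKM in ECS 1, 2 and 3, and at 64.4, 56.8 and 59.4 FPKM in control 1, 2 and 3. Il6st was at 4.14, 8.08 and 58.9 FPKM in ECS 1, 2 and 3, and at 14.0, 75.0 and 16.1 FPKM in control 1, 2 and 3. One library in each group was far above the others, and the highest of the 6 was 18.1 times the lowest. The log2 fold change of Il6st was -0.93 ± 1.00 (SE), with an interval from -3.29 to 1.42. It was -1.98 without ECS 3 and -0.18 without control 2, the libraries with the high values, while that of Il6ra was 0.09 with an interval from -0.49 to 0.67. Among other chains that work with gp130, Il27ra was at 6.99, 1.56 and 0.324 FPKM in ECS 1, 2 and 3, and at 0.420, 0.346 and 2.80 FPKM in control 1, 2 and 3. Il11ra1 was at 4.23, 10.9 and 2.79 FPKM in ECS 1, 2 and 3, and at 6.59, 0.187 and 2.90 FPKM in control 1, 2 and 3, and its value is uncertain because 6 annotated genes overlap it.

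Il12rb2, the signalling chain of the interleukin-12 receptor, was at 0.628, 2.96 and 7.67 FPKM in ECS 1, 2 and 3, and at 6.46, 5.99 and 6.68 FPKM in control 1, 2 and 3. The control libraries were close together, ECS 1 and ECS 2 lay below them and ECS 3 above them. Its log2 fold change was -0.95 ± 0.63 (SE), with an interval from -2.42 to 0.53 and a limma adjusted p of 1.00, and without ECS 3 it was -1.54, with an adjusted p of 0.937. The partner chain Il12rb1 was listed at 0 in all 6 libraries, as was Il23r. T and NK cells are known to carry Il12rb2. Their most abundant marker here, Nkg7, was at 63.5, 62.4 and 175 FPKM in ECS 1, 2 and 3, and at 101, 289.9 and 189.8 FPKM in control 1, 2 and 3, and made up most of the summed level of the 10 markers, which was 74.2 to 180 FPKM in ECS and 105 to 305 FPKM in control. Their part was not tested. Il12rb2 overlaps Serbp1 on the other strand. Il3ra, which binds interleukin-3, was at 3.44 ± 0.634 FPKM in ECS and 3.80 ± 1.09 FPKM in control (SD, n = 3 each). Il5ra, Il9r, Il20rb, Il31ra and Il1rapl1 stayed below a mean of 1 FPKM, and Il20ra, Il22ra1, Il22ra2 and Il1rapl2 were listed at 0 in every library.

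**Figure D4:**
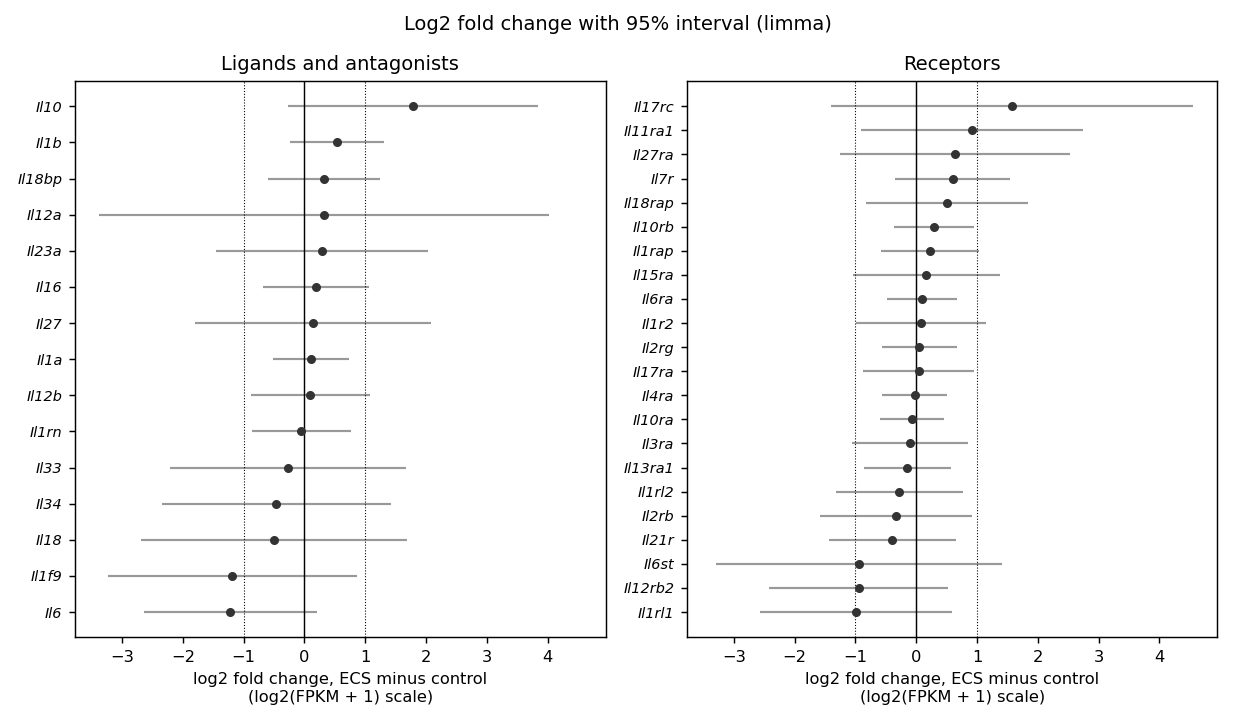
Log2 fold change of each tested gene, ECS minus control on the log2(FPKM + 1) scale, on the x axis, with 95% intervals from limma as bars and genes down the y axis; dotted lines mark a 2-fold difference in either direction. Every interval includes 0, and 9 of 37 lie between the dotted lines.

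The precision differed across the family. The half-width of the 95% interval had a median of 1.88 on the log2 scale for 13 tested ligand genes and 1.05 for 22 receptor genes, against 1.23 for all tested genes. For 9 of 37 members the interval left out a 2-fold difference in either direction, as it did for 1942 of all 11315 tested genes. These members were the ligand Il1a, the antagonist Il1rn and the receptors Il17ra, Il10ra, Il4ra, Il6ra, Il2rg, Il10rb and Il13ra1. For the other 28 members the interval did not, so a 2-fold difference was not excluded by these libraries. The median log2 fold change was 0.11 for ligand genes and 0.04 for receptor genes, beside -0.0078 for all genes tested. Neither median kept its sign: the ligand median was -0.27 without control 2, -0.11 without control 3 and -0.024 with library weights. The receptor median was -0.044 with all libraries scaled to an equal total, -0.0035 with equal upper quartiles, and -0.024, -0.011 and -0.021 without ECS 1, 2 and 3. The summed ligand level was 1182, 1691 and 1353 FPKM in ECS 1, 2 and 3, and 1167, 1352 and 1050 FPKM in control 1, 2 and 3. The summed receptor level was 974, 805 and 1092 FPKM in ECS 1, 2 and 3, and 931, 952 and 902 FPKM in control 1, 2 and 3. Both sums overlapped between the groups.

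Further genes of interleukin signalling and processing, among them adaptors, kinases, Stat factors, inhibitors, receptor chains without an Il symbol and inflammasome genes, had no call either. Of 38 such genes 37 were tested, and 0 passed the adjusted threshold, with 24 log2 fold changes above 0 and 13 below 0, a median of 0.10 and 0 at an unadjusted p under 0.05. Of all tested genes, 0% passed the adjusted threshold in either direction and 3.66% had an unadjusted limma p under 0.05. Their log2 fold change was above 0 for 49.2%, with a median of -0.0078. The genes with the smallest unadjusted p in each direction are named. Casp1, the protease that matures interleukin-1 beta and interleukin-18, was listed at 0 in ECS 1 and was at 4.55 and 5.29 FPKM in ECS 2 and 3, and at 10.4, 20.0 and 5.05 FPKM in control 1, 2 and 3. ECS 3 lay just above control 3, and the log2 fold change was -1.79 ± 0.82 (SE). Because of the 0 in ECS 1, that value depends on the constant added before the logarithm. Sigirr, an inhibitory receptor of the interleukin-1 family, was listed at 0 in ECS 1 and ECS 2 and was at 0.784 FPKM in ECS 3, and at 2.11, 3.32 and 0.684 FPKM in control 1, 2 and 3. Socs3, an inhibitor that Stat3 induces downstream of interleukin-6 and interleukin-10, was at 1476, 976 and 1176 FPKM in ECS 1, 2 and 3, and at 874, 840 and 1098 FPKM in control 1, 2 and 3. Control 3 lay above ECS 2, and the log2 fold change was 0.36 ± 0.23 (SE). Csf2rb2, a receptor chain for interleukin-3, was at 23.7 ± 3.32 FPKM in ECS and 17.1 ± 6.22 FPKM in control (SD, n = 3 each).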

How the data were processed

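Poly(A) RNA of cells that were dissociated from spinal cord, freed of myelin and selected with CD11b beads was sequenced, per the labels' protocols. The authors deposited FPKM per gene, 1 column per library, for 47719 rows. The submitters' processing notes list TopHat2, Cufflinks, Cuffnorm and the build GRCm38. Their versions, the annotation, whether strand was used and any scaling across libraries were not given in the sources used here. Cufflinks divides reads between overlapping genes by estimation, so such values are uncertain. A scan for whole-read steps among low values of genes with 1 transcript put at most 26.4% of them within 0.1 of a whole multiple, so no read counts were recovered.

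The 6 columns were matched to samples by the labels' descriptions. Rows whose mean reached 1 FPKM (11315) were tested with limma 3.58.1 in R 4.3.3 on log2(FPKM + 1), a scale that understates changes of low genes, with a variance trend. Tests were two-sided, and p-values were adjusted over all rows by Benjamini and Hochberg. Described with every library's value were members with a mean of at least 10 FPKM, members with an unadjusted p under 0.05 or separate groups, and a fixed list of common members. Classes of ligands and receptors and the lists of signalling genes and cell markers were written out, and the members and lists were chosen with earlier results of these data known. Positions are from GENCODE M21 and promoters from RefSeq GRCm38.p6. Alternatives were 2 other constants, 3 other filters, 3 scalings, 3 variance models, a replicate block, each library left out and an adjusted p under 0.1. Nothing in the labels says that equal replicate numbers mark a shared day or litter.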

Additional observations from a re-analysis of the deposited data

How the results depend on the processing

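Under each of the 18 alternative settings, and at an adjusted p under 0.1, 0 genes were called higher and 0 were called lower in ECS, over all genes as well as over the interleukin family. At an unadjusted p under 0.05 there were 260 to 557 genes, and 0 to 2 family members. The number of genes tested changed with the filter, so these counts are not shares. In the main limma fit, 3.66% of 11315 genes and 0 of 37 members came under that threshold. The members that came under it did so with library weights (Il10 and Il1b) or with a library left out (Il1b without ECS 1, Il6 without ECS 2, Il12rb2 and Il6st without ECS 3, Il10 without control 3). A replicate block likewise gave 0 calls in either direction. Deviations from the group means correlated at -0.038, 0.097 and -0.11 between libraries that share a number. These values showed no pairing by number, but with 3 libraries per group they cannot exclude one.

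Of 22 members followed through the settings, 8 had 1 sign in all of them, but their size moved. With 1 library left out the log2 fold change ranged from 0.27 to 0.85 for Il1b, from -1.75 to -0.51 for Il6, from 0.84 to 2.59 for Il10, from 0.044 to 0.50 for Il18bp, from 0.017 to 0.23 for Il6ra, from 0.11 to 0.39 for Il10rb, from -1.98 to -0.18 for Il6st and from 0.042 to 0.47 for Il1rap, and that of Il6ra was 0.0012 at an equal total. None of the sign changes of the other 14 concerned a called value, and their cause was not tested. With 1 library left out, the log2 fold changes of these 14 ranged from -0.11 to 0.35 for Il1a, from -0.11 to 0.45 for Il16, from -1.16 to 1.72 for Il12a, from -1.33 to 0.12 for Il18, from -1.31 to 0.25 for Il34, from -0.35 to 0.26 for Il1rn and from -0.29 to 0.43 for Il17ra, and from -0.17 to 0.010 for Il10ra, from -0.40 to 0.46 for Il1r2, from -0.099 to 0.076 for Il4ra, from -0.092 to 0.15 for Il2rg, from -0.80 to 0.058 for Il21r, from -0.24 to 0.0050 for Il13ra1 and from -0.37 to 0.45 for Il15ra. Library weights gave -0.83 for Il12a and 0.025 for Il1rn. Rescaling to the same total gave -0.052 for Il17ra, -0.011 for Il1r2 and -0.037 for Il2rg, and moved the median of all genes by -0.077, while rescaling to the same upper quartile gave -0.010 for Il17ra. The number of reads is unknown, so no counting error can be given, and levels near 1 FPKM are the least certain.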
